A study of Mus musculus with 15 samples.

Results

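The genes of major histocompatibility complex (MHC) class II antigen presentation, with their transactivator Ciita, were followed across histone marks in bone marrow-derived macrophages (BMDMs) lacking histone H3.3. The 8 genes, chosen by name out of 21938 protein-coding genes, were Ciita, Cd74, H2-Aa, H2-Ab1, H2-Eb1, H2-DMa, H2-DMb1 and H2-DMb2. For each gene, the regions called in every library were measured over a window made of the gene body and 5 kb upstream of it. CUT&RUN, an assay that sequences the DNA cut loose by an antibody-tethered nuclease, had been run for H3K27ac, an acetylation found at active promoters and enhancers, and for H3K36me3, a methylation laid down along transcribed gene bodies. H3.3 itself was located through an HA tag. H3.3-HA and each mark in each genotype made up 5 groups, which held 2 libraries each, labelled as biological replicates. A further 5 IgG controls served the region calling.

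Both WT and cKO mice carried loxP-flanked copies of the H3.3 genes H3f3a and H3f3b. The cKO mice also carried Cre at Lyz2 (LysM), which is active in myeloid cells, and the study notes that deletion of H3f3b varied between cKO samples from partial to complete. The HA tag sat on the H3f3b product in separate mice, so H3.3 made from H3f3a was not seen. All mice had a C57BL/6 background and were 8 to 10 weeks old. Their marrow was cultured for 6 to 8 days with L929 conditioned medium and received no treatment, so that the class II genes were read in unstimulated macrophages.

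MHC class II molecules display peptides from ingested proteins to CD4+ T cells. An alpha and a beta chain, such as H2-Aa with H2-Ab1, form the peptide groove, and the invariant chain Cd74 fills it until the endosome. H2-DM, assembled from H2-DMa and an H2-DMb chain, exchanges the invariant chain remnant for peptide. H2-Eb1 encodes a further beta chain. CIITA binds no DNA by itself. It is recruited by the RFX, CREB and NF-Y proteins that sit on the X and Y boxes of class II promoters, and in macrophages it is best known for its induction by interferon gamma from alternative promoters.

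The lists held 35018 to 61764 regions per library, from 5365319 to 29988098 sequenced tags. A list gives only where regions lie, so covered length is a length and not a height, and a weak region that falls just under the caller's threshold is missing altogether. Among the H3K36me3 libraries, cKO replicate 1 stood apart. It covered 90.7 Mb with 19.3% of its tags in regions, against 163 to 170 Mb and 46.5 to 50.2% in the other 3. In H3K27ac, both cKO lists were sparser than both WT lists. The cKO lists covered 46.2 and 62.0 Mb, with 11.8 and 17.8% of their tags in regions. The WT lists covered 89.6 and 74.8 Mb, with 24.1 and 21.5%. A narrow H3K27ac region missing in cKO was thus read against lists with fewer tags in regions. The windows of all 8 macrophage markers held H3K36me3 regions in all 4 libraries. Of the lineage markers of other cells, B cell genes had no H3K36me3 region except 0.501 kb in cKO replicate 2, granulocyte and T cell genes had none, and dendritic cell genes summed to 1.00 and 2.72 kb in WT and to 0 and 1.77 kb in cKO. Lists of this kind do not check the deletion itself: H3f3a windows were 11.9 and 11.9% covered by H3K27ac in WT and 22.4 and 19.7% in cKO, and H3f3b windows 58.3 and 52.3% in WT and 65.2 and 85.5% in cKO.

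**Figure D1:**
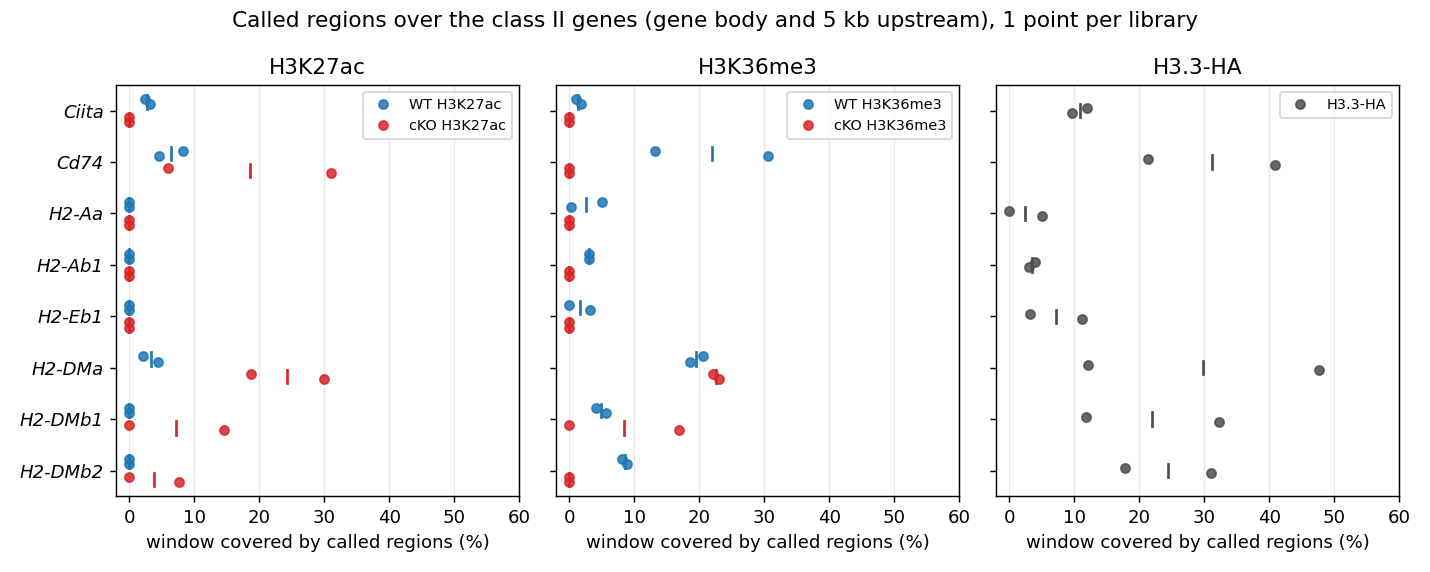
Share of each gene's window (gene body and 5 kb upstream, in percent) that called regions covered, for H3K27ac, H3K36me3 and H3.3-HA; each point is 1 library, the vertical bars are means of 2 libraries, and blue is WT, red cKO and grey H3.3-HA. Ciita reads 0 in both cKO libraries of both marks, and H2-DMa H3K27ac lies at 18.8 and 29.9% in cKO against 2.04 and 4.45% in WT.

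The class II genes did not move together. H3K27ac regions were found for 5 of the 8 genes, counting any of the 4 libraries. Both cKO libraries lay below both WT libraries for 1 of them, Ciita, a pattern seen in 38.2% of the 12767 protein-coding genes with any H3K27ac region, and above both WT libraries for 1, H2-DMa, a pattern seen in 17.4%. When the 4 lists were merged, 1 gene (Ciita) held a region present in both WT and neither cKO library (lost), against 37.3% of genes, and 1 (H2-DMa) held a region present in both cKO and neither WT library (gained), against 17.3%. The median cKO minus WT difference was 1.89 percentage points of the window over the 8 genes and -1.02 points over all genes with a region. These sets are unlike, because the 8 include H2-Aa, H2-Ab1 and H2-Eb1, which had no region and count as 0. For the 5 genes with a region, the differences were -2.76 (Ciita), 3.78 (H2-DMb2), 7.24 (H2-DMb1), 12.1 (Cd74) and 21.1 points (H2-DMa). The higher cKO means of Cd74, H2-DMb1 and H2-DMb2 came from cKO replicate 2. With the libraries of 1 of 5 genes separated in each direction, H3K27ac gave the group no common direction repeated in both cKO libraries.

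For H3K36me3 all 8 genes held a region in some library. Both cKO libraries lay below both WT libraries for 5 of them (Ciita, Cd74, H2-Aa, H2-Ab1 and H2-DMb2), where 37.7% of 11975 genes did so, and above them for 1 (H2-DMa), against 7.85%. A lost region was held by 2 genes, H2-DMa and H2-DMb2, which share it, against 23.6% of genes, and a gained region by none, against 8.47%. The median difference was -2.08 points over the 8 genes and -4.99 points over all genes with a region. Gene values were compared by an exact permutation test (two-sided, 2 libraries per genotype), which cannot give a p under 0.33, the value it gave wherever the groups did not overlap, so none of the differences below could pass 0.05.

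H3.3-HA reached 7 of the 8 windows in both libraries, all but H2-Aa, whereas 44.2% of all protein-coding genes had a region in both. Both shares count windows and not repeated sites, and in H2-Ab1 the 2 libraries called places that did not overlap. The 24 merged H3.3-HA regions in the windows included 12 found in both libraries. Among those 12, 3 overlapped H3K27ac in both WT libraries and 2 in both cKO libraries, and 3 overlapped H3K36me3 in both WT libraries and 2 in both cKO libraries. The level of H3.3-HA per gene ran from H2-Aa (2.49 ± 3.51%, SD, n = 2), H2-Ab1 (3.50 ± 0.714%) and H2-Eb1 (7.17 ± 5.66%), through Ciita (10.8 ± 1.56%), to H2-DMb1 (22.0 ± 14.5%), H2-DMb2 (24.5 ± 9.38%), H2-DMa (29.9 ± 25.1%) and Cd74 (31.2 ± 13.9%). Neighbours in this order differed by less than the SD of at least 1 of the pair, while the 3 classical chain genes lay below the H2-DM genes and Cd74 in each library.

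Ciita (ENSMUSG00000022504.10, chr16:10480059-10528418, plus strand on mm10) encodes the master regulator of the class II genes, and its H3K27ac regions were called in WT cells alone. In WT cells H3K27ac covered 2.43 and 3.09% of the window (1296 and 1648 bp), and in cKO cells it covered 0 in both libraries. Both WT libraries called the same pair of sites, all of them narrow. With regions of at least 1 kb alone, Ciita read 0 in all 4 libraries, and with lists of equal length it stayed below WT in both cKO libraries but 1 of the 2 lost regions was left. An upstream site at chr16:10475755-10476521 was 501 bp wide in WT replicate 1 and 767 bp in replicate 2, with its centre 3.92 kb before the first start. An intron site at chr16:10494930-10495867 was 795 and 881 bp wide, 15.4 and 15.3 kb after that start. The nearest H3K27ac region to the first Ciita start was 3671 and 3538 bp away in WT, and 61944 and 61121 bp away in cKO. Across the genome, 12771 of 35164 merged regions held by both WT libraries were lost in this way (36.3%), so that losing a site was common.

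The sites carried H3.3. Both lost H3K27ac regions overlapped H3.3-HA in both HA libraries, which 25.5% of all lost H3K27ac regions did, and 44.1% of all regions in both WT libraries. Because these sites are the part of the class II group where WT acetylation was repeated and cKO acetylation was absent, the central 300 bases shared by both WT libraries are given here from the RefSeq GRCm38.p6 genome, in lower case because no motif was searched in them. Every base shown was inside an H3.3-HA region of both libraries. The upstream stretch had a GC content of 46.0% and the intron stretch 48.7%, and both had 0 CG dinucleotides.
Ciita upstream region (chr16:10475988-10476287, plus strand): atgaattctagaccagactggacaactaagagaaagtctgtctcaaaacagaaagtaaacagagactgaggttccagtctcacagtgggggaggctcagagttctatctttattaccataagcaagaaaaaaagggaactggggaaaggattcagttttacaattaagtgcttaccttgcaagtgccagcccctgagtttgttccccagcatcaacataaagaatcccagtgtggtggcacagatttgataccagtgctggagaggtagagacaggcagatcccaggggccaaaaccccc
Ciita intron region (chr16:10495291-10495590, plus strand): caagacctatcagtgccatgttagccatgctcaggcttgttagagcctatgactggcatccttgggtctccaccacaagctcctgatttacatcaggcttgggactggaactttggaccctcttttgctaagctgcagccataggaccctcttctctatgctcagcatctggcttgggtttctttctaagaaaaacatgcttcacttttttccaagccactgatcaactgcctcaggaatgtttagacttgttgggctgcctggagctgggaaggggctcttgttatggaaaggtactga

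**Figure D2:**
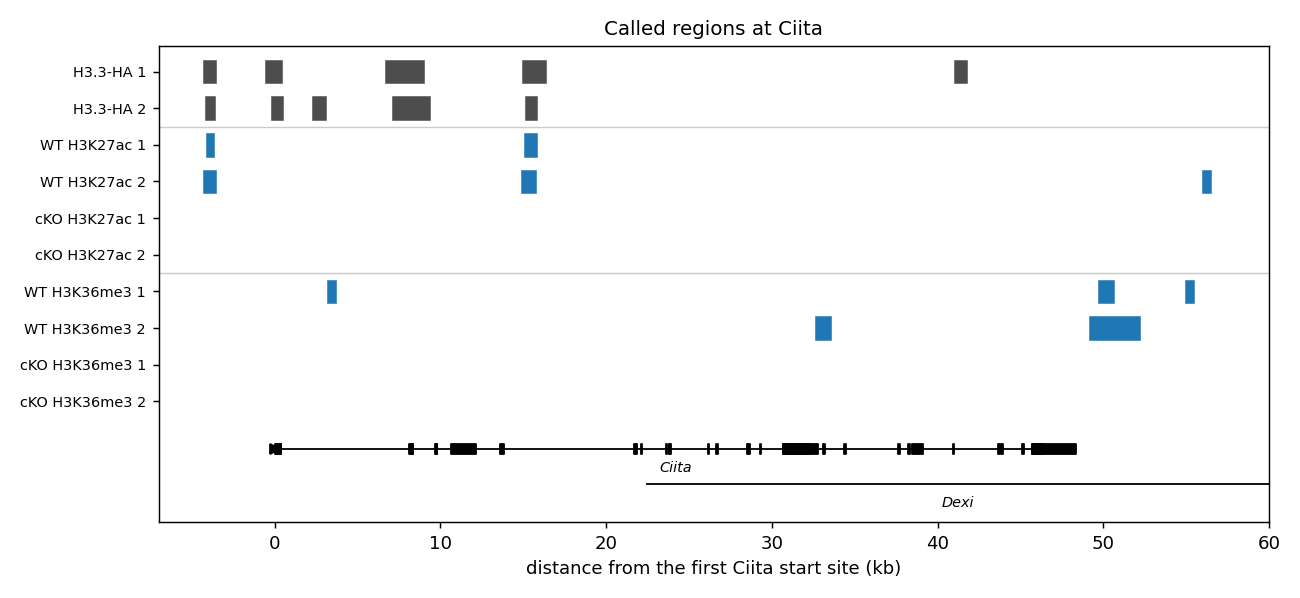
Regions called in each of the 10 libraries around Ciita, drawn to scale by distance from the first annotated start (kb); grey bars are H3.3-HA, blue WT and red cKO, with exons as black boxes and the arrow at the start. The pair of WT H3K27ac sites lies under H3.3-HA in both HA libraries, and the cKO rows are empty across the gene.

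At the Ciita starts themselves, H3.3 and acetylation parted. Annotated transcripts begin in 3 clusters, at 10480059 to 10480164, 10488178 to 10488279 and 10489746 to 10489783, and the promoter of each (1 kb before to 100 bp after the starts) overlapped H3.3-HA in 2 of 2 libraries. None of the 3 overlapped H3K27ac or H3K36me3 in any WT or cKO library. H3.3-HA covered 11.9 and 9.72% of the window, in 5 regions per library, of which 4 sites were shared. H3K36me3 was sparse at Ciita. WT replicate 1 called 501 bp in an intron and WT replicate 2 called 963 bp elsewhere over an exon, without overlap, and cKO called none (1.37 ± 0.612% against 0, n = 2 each). Within 5 kb after the gene, both WT libraries had an H3K36me3 region (963 and 3100 bp) and cKO had none. The gene Dexi (chr16:10502531-10543054, minus strand) overlaps the end of Ciita, including that region and the WT replicate 2 region, so H3K36me3 there cannot be assigned to either gene. Both H3K27ac sites lie outside Dexi.

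The classical chain genes H2-Ab1 (ENSMUSG00000073421.6, chr17:34257689-34269419, plus strand), H2-Aa (ENSMUSG00000036594.15, chr17:34282744-34287823, minus strand) and H2-Eb1 (ENSMUSG00000060586.11, chr17:34305867-34316674, plus strand) encode class II alpha or beta chains. None of the 3 windows had an H3K27ac region in any of the 4 libraries, so acetylation could not be compared there. H3.3-HA was at 4.005 and 2.99% over H2-Ab1, 0 and 4.97% over H2-Aa and 3.17 and 11.2% over H2-Eb1, and 1 site, in an intron of H2-Eb1, was shared by both HA libraries. At the coding starts of all 3 genes, no library of any mark or of H3.3-HA had a region over the promoter, and H3.3-HA lay over the promoter of the first, noncoding H2-Ab1 start in 1 of 2 libraries. The promoters of H2-Aa and H2-Eb1 are printed because they show the elements through which the class II regulators are known to work. Of the 8 genes, 5 had an entry in the RefSeq promoter table (GRCm38.p6). The 250 bases before the start are given for H2-Aa and H2-Eb1 on the gene's own strand, and capitals mark the core of the Y box (ATTGG), of the X1 box (AGCAAC) and of the X2 box (TGACG), each searched on both strands from 250 bases before to 50 bases after the start. The X2 core of H2-Aa occurs on both strands with an overlap of its letters.
H2-Aa (chr17:34287824-34288073, minus strand): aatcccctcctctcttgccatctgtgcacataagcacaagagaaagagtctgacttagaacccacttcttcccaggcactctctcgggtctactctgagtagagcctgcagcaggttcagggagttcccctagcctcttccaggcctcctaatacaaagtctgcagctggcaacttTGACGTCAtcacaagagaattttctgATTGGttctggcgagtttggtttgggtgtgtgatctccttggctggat
H2-Eb1 (chr17:34305617-34305866, plus strand): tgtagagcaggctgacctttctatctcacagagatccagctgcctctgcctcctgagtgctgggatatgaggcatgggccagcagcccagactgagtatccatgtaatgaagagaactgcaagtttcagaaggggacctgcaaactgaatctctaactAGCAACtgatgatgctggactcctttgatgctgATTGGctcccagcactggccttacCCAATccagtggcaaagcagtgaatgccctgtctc

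H2-Aa held the Y core 48 bases before its start with an X2 core upstream, 21 bases between them, and H2-Eb1 held the Y core 59 bases before its start with an X1 core upstream, 27 bases between them. Among 32851 promoters of the same length, 37.4% held the Y core, 14.8% the X1 core and 20.8% the X2 core. An X1 core followed by a Y core within 40 bases was found in 0.624%, and an X2 core followed by a Y core in 1.12%. H2-Ab1, Cd74 and Ciita had no entry. These are letter matches and no binding was measured.

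H3K36me3 over the classical chain genes was called in WT only, as single narrow regions. H2-Ab1 had 501 bp in each WT library, at places that did not overlap, and 0 in both cKO libraries. For H2-Aa, WT replicate 1 had 501 bp over an exon, WT replicate 2 touched the window with 18 bp of a region beyond the gene's end, and cKO had 0. H2-Eb1 had 501 bp in WT replicate 2 alone. A width of 501 bp is the narrowest a stitched region of these libraries takes, and 23.4 to 29.6% of all H3K36me3 regions had it. The positions were not repeated between WT replicates at any of the 3 genes, and with regions of at least 1 kb alone all 3 genes read 0 in every library. The counts of WT above cKO for H2-Aa and H2-Ab1 thus rest on regions that no other library repeated.

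Between H2-Aa and H2-Eb1, outside the windows, acetylation appeared in the cKO lists. A region of 501 bp (chr17:34296182-34296682) in cKO replicate 1 and of 1038 bp (chr17:34295799-34296836) in replicate 2 lay 8.61 and 8.49 kb from the H2-Aa start and 9.44 and 9.55 kb from the H2-Eb1 start, and no WT library had a region there. Both cKO regions overlapped H3.3-HA in 1 of 2 libraries. With them, the nearest H3K27ac to the H2-Aa start was 8359 and 7976 bp away in cKO, and 67107 and 47741 bp away in WT. This site was picked out after its values were seen. Of the 12767 genes with an H3K27ac region in their window, 17.3% held a gained region there. H2-Aa and H2-Eb1 are not among those genes and the site lies outside the windows, so that share is not a like measure for it.

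**Figure D3:**
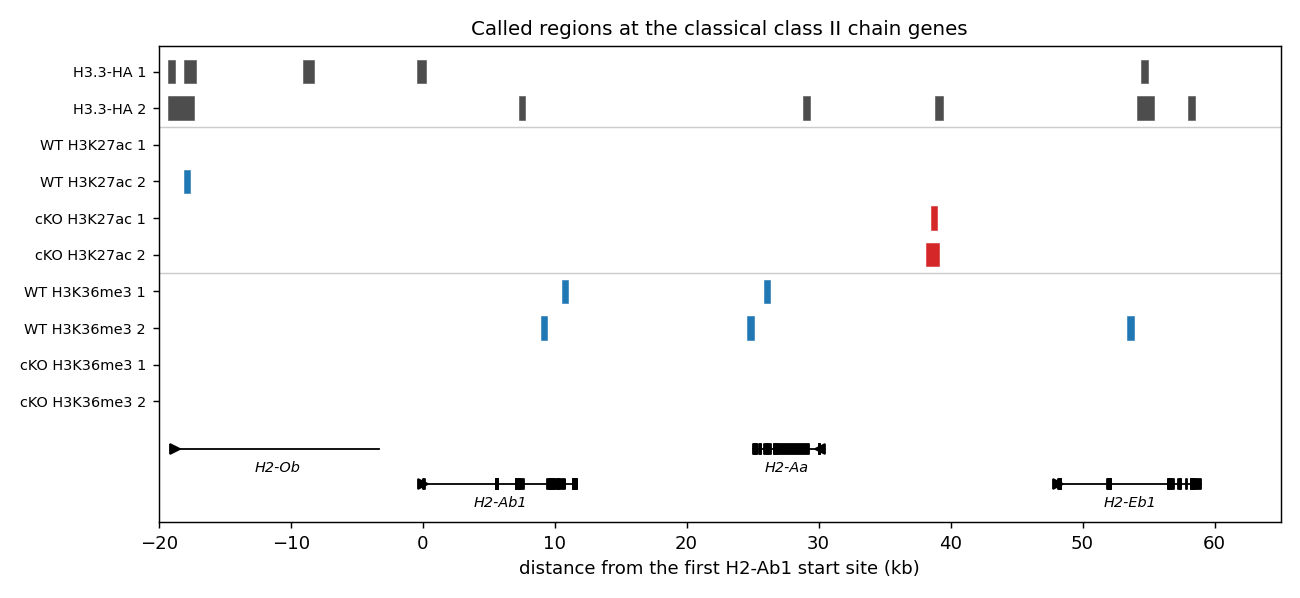
Regions called in each of the 10 libraries from H2-Ob to H2-Eb1, drawn to scale by distance from the first H2-Ab1 start (kb); grey bars are H3.3-HA, blue WT and red cKO, with exons of the class II genes as black boxes. The 3 genes have no H3K27ac region in any library and only narrow WT H3K36me3 regions, and both cKO H3K27ac libraries share a site between H2-Aa and H2-Eb1.

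Of the 3 H2-DM genes, 1, H2-DMa, had more called H3K27ac in both cKO libraries than in either WT library. H2-DMa (ENSMUSG00000037649.10, chr17:34119541-34139101, plus strand) encodes the alpha chain of the peptide exchange factor. H3K27ac covered 2.04 and 4.45% of its window in WT and 18.8 and 29.9% in cKO (501, 1094, 4606 and 7342 bp), which is 3.25 ± 1.71% against 24.3 ± 7.88% (n = 2 each). The libraries did not overlap. Much of this length lay inside the body of Brd2, a bromodomain gene on the other strand (chr17:34112023-34122634) that reaches into the H2-DMa window. Outside the Brd2 body, the window held 0 and 0 bp in WT and 1648 and 3974 bp in cKO. The difference was 17.1 percentage points of what remained of the window, still without overlap. That remainder still includes bases just before the Brd2 start at 34122634. The cKO regions that cross this start end at 34123368 in replicate 1 and at 34123944 in replicate 2. Coding transcripts of H2-DMa begin in 2 places. The first (34122822 to 34122846) lies beside the start of Brd2, at 34122634 on the other strand. H3K27ac there cannot be assigned to either gene. At this first place the promoter overlapped H3K27ac in 0 of 2 WT and 2 of 2 cKO libraries. The nearest WT region lay 1619 and 1756 bp from the H2-DMa start. At the later one (34135628 to 34135654), it overlapped H3K27ac in 0 of 2 WT libraries and in cKO replicate 2 alone, while the nearest region of cKO replicate 1 lay 10051 bp away. A site inside the gene, chr17:34124524-34125640 in an intron, was gained: both cKO and neither WT library called it, and it overlapped H3.3-HA in both HA libraries, as 21.6% of all gained H3K27ac regions did.

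The promoter at the first coding H2-DMa start, which also spans the start of Brd2, is printed beside those of H2-DMb2 and H2-DMb1. They were chosen because H3K27ac covered the first over its whole length in both cKO libraries and the last in cKO replicate 2 alone. WT had no H3K27ac region on any of the 3. Capitals mark the Y core, on the same terms as above.
H2-DMa (chr17:34122582-34122831, plus strand): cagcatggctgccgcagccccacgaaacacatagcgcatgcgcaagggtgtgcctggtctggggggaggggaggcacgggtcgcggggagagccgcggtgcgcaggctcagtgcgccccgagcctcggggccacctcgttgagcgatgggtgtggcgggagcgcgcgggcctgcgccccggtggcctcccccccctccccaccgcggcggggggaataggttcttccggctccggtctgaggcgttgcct
H2-DMb2 (chr17:34144999-34145248, plus strand): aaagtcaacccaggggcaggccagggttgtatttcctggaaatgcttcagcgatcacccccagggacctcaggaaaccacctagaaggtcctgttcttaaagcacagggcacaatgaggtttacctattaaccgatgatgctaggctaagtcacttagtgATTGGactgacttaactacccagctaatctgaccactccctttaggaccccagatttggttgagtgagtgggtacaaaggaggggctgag
H2-DMb1 (chr17:34152941-34153190, plus strand): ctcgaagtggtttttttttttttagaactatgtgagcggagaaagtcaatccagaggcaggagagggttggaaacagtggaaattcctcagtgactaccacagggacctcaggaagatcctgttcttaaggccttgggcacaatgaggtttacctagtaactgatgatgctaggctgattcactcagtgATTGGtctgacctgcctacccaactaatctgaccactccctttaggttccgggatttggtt

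This H2-DMa promoter held none of the 3 motifs and 27 CG dinucleotides in 250 bases, more than 91.4% of promoters, whereas those of H2-DMb2 and H2-DMb1 held 2 and 3. In H2-DMb2 and H2-DMb1 the Y core lay 90 and 61 bases before the start. The later coding start of H2-DMa had no entry. An additional H2-DMa entry (chr17:34125268-34125517), from an internal start, lay inside the gained intron region and was covered by H3K27ac over its 250 bases in both cKO libraries and over none in WT.

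H2-DMb1 (ENSMUSG00000079547.4, chr17:34153072-34160230) and H2-DMb2 (ENSMUSG00000037548.15, chr17:34143307-34151555), both on the plus strand, encode alternative beta chains of H2-DM. They are close copies of each other, and how reads matching both were placed is not given in the sources used here. H3K27ac covered 0 and 0% of the H2-DMb1 window in WT, 0% in cKO replicate 1 and 14.5% in cKO replicate 2. For H2-DMb2 the same 4 values were 0, 0, 0 and 7.56%. Each higher value is therefore the reading of cKO replicate 2 alone, and without cKO replicate 1 the number of class II genes above WT went from 1 to 4. H3.3-HA covered 11.7 and 32.2% of H2-DMb1 and 17.8 and 31.1% of H2-DMb2. Its shared sites lay over the first H2-DMb2 start (2 of 2 libraries) and inside H2-DMb1.

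**Figure D4:**
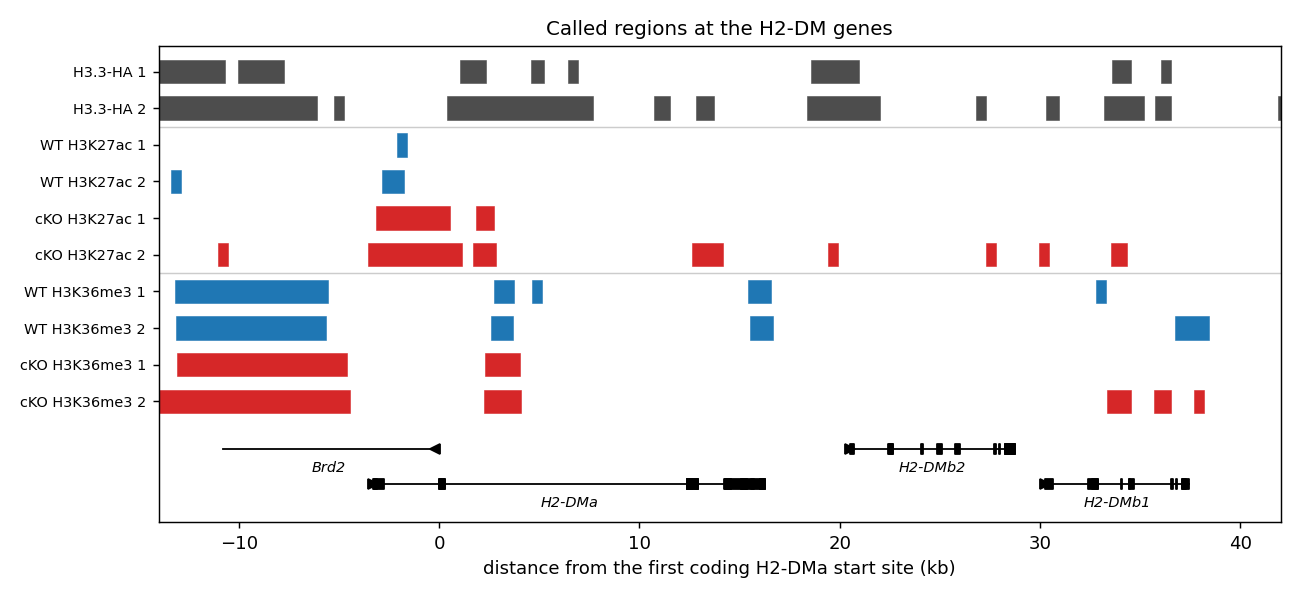
Regions called in each of the 10 libraries from Brd2 to H2-DMb1, drawn to scale by distance from the first coding H2-DMa start (kb); grey bars are H3.3-HA, blue WT and red cKO, with exons of the class II genes as black boxes. Both cKO H3K27ac libraries cover the first coding H2-DMa start, beside the start of Brd2, and a site in the H2-DMa intron that the WT libraries lack. A region at the later coding start is in cKO replicate 2 alone, and the WT H3K36me3 site at the 3′ end of H2-DMa is absent in cKO.

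H3K36me3 gave a mixed picture over the H2-DM genes. H2-DMa had 20.5 and 18.5% in WT and 22.1 and 23.1% in cKO, a difference of 3.05 percentage points. It turned to -1.76 points over the gene body alone and to -2.09 points without the bodies of other genes. The upstream part, all of it inside the body of Brd2, held 2713 and 2647 bp in WT and 3703 and 3845 bp in cKO. Inside the gene, an intron site was in all 4 libraries, and a site over its last exon (chr17:34138257-34139494) was in both WT and neither cKO library. That lost site had no H3.3-HA region in either library. It also provides the whole H3K36me3 reading of H2-DMb2, 8.17 and 8.91% in WT and 0 and 0% in cKO, since it lies in the upstream part of that window. The H2-DMb2 body read 0 in all 4 libraries. H2-DMb1 had 4.12 and 5.61% in WT and 0 and 16.9% in cKO, and the groups overlapped.

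Cd74 encodes the invariant chain, the chaperone that class II chains need on their way to the endosome (ENSMUSG00000024610.15, chromosome 18, 60803848 to 60812652, plus strand). Its window had the highest mean H3.3-HA of the 8, from values of 21.3 and 41.0%, and H3K36me3 in WT of 13.3 and 30.5% (1830 and 4212 bp) against 0 and 0% in cKO. This was the largest H3K36me3 difference of the 8 genes (-21.9 points, WT 21.9 ± 12.2%, n = 2 each), it did not overlap, and it stood without cKO replicate 1, the sparse library. Where the mark began differed. In WT the first H3K36me3 base lay 4.72 and 4.59 kb after the Cd74 start, and in cKO 10.9 and 9.03 kb after it, beyond the end of the gene. The gene that follows, Tcof1, starts its annotation 1102 bases later on the minus strand, and H3K36me3 covered 77.3 and 81.7% of its body in WT and 63.8 and 89.7% in cKO. In WT replicate 2 a single region of 12415 bp ran from Cd74 into Tcof1, so its H3K36me3 cannot be assigned to either gene. In WT replicate 1, regions of 1170 and 501 bp lay inside Cd74, and a region of 1375 bp crossed into Tcof1. The region merged from all libraries therefore counts as present in all 4 and not as lost.

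H3K27ac over the Cd74 window did not separate the genotypes, but this depended on the setting. Over the gene body alone it covered 7.26 and 7.11% in WT and 9.42 and 37.5% in cKO, without overlap. Cd74 also lay above WT in both cKO libraries with lists of equal length and as a share of all covered bases. The window was covered by 8.26 and 4.53% in WT and 6.01 and 31.0% in cKO (exact permutation p = 0.667). The place of the mark differed, however. The intron site about 2.36 kb after the start was called in both WT libraries at nearly the same bases. Of the cKO libraries, replicate 1 had 829 bp just after the start and replicate 2 had 3499 bp across the start and the intron. The promoter overlapped H3K27ac in 1 of 2 WT and 2 of 2 cKO libraries. The region merged from all 4 libraries overlapped H3.3-HA in both HA libraries.

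**Figure D5:**
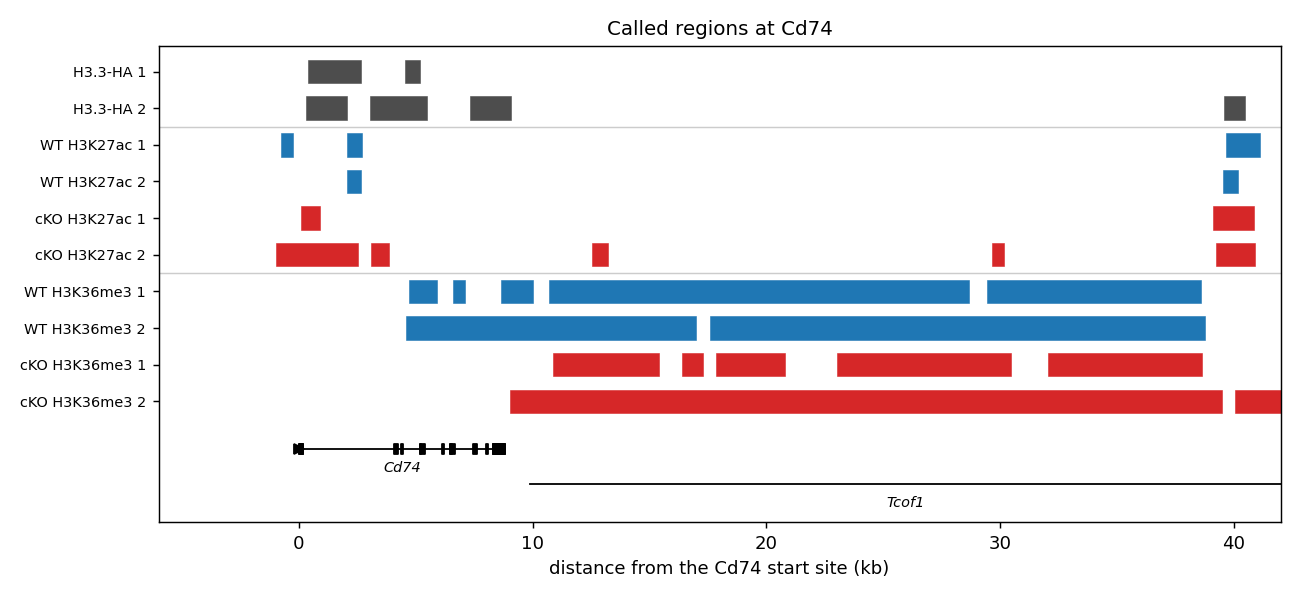
Regions called in each of the 10 libraries from Cd74 into Tcof1, drawn to scale by distance from the Cd74 start (kb); grey bars are H3.3-HA, blue WT and red cKO, with Cd74 exons as black boxes. The WT H3K36me3 bars start 4.72 and 4.59 kb after the Cd74 start, and the cKO bars 10.9 and 9.03 kb after it, past the gene's end.

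Summed over the windows (155474 bp without double counting), H3K27ac of the class II genes was 2937 and 3368 bp in WT and 5435 and 13879 bp in cKO. H3K36me3 was 9169 and 11826 bp in WT and 5429 and 7726 bp in cKO. The libraries of each mark did not overlap, and the marks differed in opposite directions. The H2-DMa window held 5176.5 bp of the mean H3K27ac difference of 6504.5 bp, which was 4139 bp with the bodies of other coding genes, Brd2 among them, taken out, and every base of H3K36me3 in cKO replicate 1 lay in the H2-DMa window. The median width of the regions was 639 bp for WT H3K27ac, 871.5 bp for cKO H3K27ac, 975.5 bp for WT H3K36me3 and 1777.5 bp for cKO H3K36me3. In H3K36me3, 9 of 20 WT regions but 0 of 6 cKO ones were 501 bp wide. Of all H3K36me3 regions, 24.1 and 23.4% in WT and 29.6 and 24.1% in cKO had that width. The 6 cKO regions include those of 8520 and 10281 bp over Brd2, which reach beyond the H2-DMa window. These widths thus depend on which places kept a call. In bulk cultures, a change in the mark per cell and a change in the share of cells that carry it cannot be told apart.

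The wider class II pathway was read from a list of 25 genes, of which 23 matched a protein-coding gene. H2-Ea, a pseudogene in this annotation, and Ifi30, annotated there as a noncoding transcript, did not. For H3K27ac, 9 of 21 genes with a region lay below WT in both cKO libraries and 3 lay above, where 38.2 and 17.4% of all genes with a region did. For H3K36me3, 9 of 20 lay below and 3 above, where 37.7 and 7.85% did. The medians over the 23 matched genes were -1.22 and -2.23 points, where a gene without a region counts as 0. Over all genes with a region they were -1.02 and -4.99 points. H3.3-HA was in both libraries for 19 of 23, against 44.2% of all protein-coding genes. Among the proteins that bind the promoter boxes, Creb1 had 31.3 ± 0.0855% H3K27ac in WT against 11.5 ± 3.99% in cKO (SD, 2 libraries each), the NF-Y subunit gene Nfya 44.4 ± 1.05% and 21.9 ± 14.2%, and Nfyc 11.4 ± 1.15% and 7.60 ± 3.34%. The RFX subunit gene Rfxank went the other way, with 5.64 ± 2.67% in WT and 11.7 ± 2.82% in cKO, and the libraries overlapped for Rfx5 and Rfxap.

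Regulators of Ciita and of antigen processing also divided. Nlrc5, the class I counterpart of Ciita, had 6.86 ± 3.20% H3K27ac in WT and 13.4 ± 5.46% in cKO. Irf1, an interferon-responsive activator of Ciita, had 4.39 ± 4.39% in WT and 0 in both cKO libraries. The repressor of Ciita Prdm1 was at 4.54 ± 0.247% and 1.68 ± 1.64%, and March1, the ubiquitin ligase that removes class II from the surface, was at 2.95 ± 0.0492% and 2.36 ± 0.326%. Of the endosomal proteases, Lgmn had 44.6 ± 8.76% and 28.0 ± 0.555% and Ctsl 39.3 ± 13.3% and 9.38 ± 13.3%, and the groups overlapped for Ctss. Ctss and Ctsl lay above WT in H3K36me3 (80.4 ± 1.21% against 82.7 ± 1.24%, and 38.2 ± 2.75% against 49.7 ± 2.77%), as did Irf8. The costimulatory gene Cd86 had 9.55 ± 1.81% H3K36me3 in WT and 1.29 ± 1.83% in cKO, and Cd80 22.4 ± 6.79% and 4.41 ± 6.24%.

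Several genes beside the class II genes on chromosome 17 also had more called H3K27ac in cKO. Of 8 protein-coding neighbours, 6 had an H3K27ac region, and 5 of those lay above WT in both cKO libraries, as 17.4% of all genes with a region did. Psmb9 and Tap1, an immunoproteasome subunit and a peptide transporter of the class I pathway that share a start region, had 0 in both WT libraries and 27.7 ± 9.74% and 25.5 ± 8.52% in cKO. Psmb8 had 13.4 ± 4.81% and 35.6 ± 3.81%, Tap2 14.6 ± 3.99% and 24.0 ± 5.52%, and Brd2, whose window shares bases with that of H2-DMa, 5.11 ± 2.69% and 34.1 ± 6.51%. The class II neighbours were different: H2-Oa and H2-Eb2 had no H3K27ac region in any library, and H2-Ob had 501 bp in WT replicate 2 alone. H2-Oa and H2-Ob, which encode the inhibitor of H2-DM, nevertheless carried H3.3-HA in both libraries (27.004 and 11.6% on average).

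Class II genes are also a mark of dendritic cells and B cells, so H3K27ac at their markers is given beside these values. Of 7 dendritic cell markers, 5 had an H3K27ac region, of which 2 lay above WT in both cKO libraries and 0 below, where 17.4 and 38.2% of all genes with a region did. Their summed lengths were 7.28 and 6.11 kb in WT and 8.60 and 13.9 kb in cKO. The 2 above WT were Itgax (2.42 ± 0.715% and 11.3 ± 8.00%) and Clec9a (7.42 ± 0.112% and 13.2 ± 1.26%). In H3K36me3, however, Itgax had 6.17 ± 6.01% in WT and 0 in both cKO libraries. H3K27ac overlapped between genotypes for Flt3 and Xcr1, and Dpp4 had 501 bp in WT replicate 2 alone. Zbtb46 and Ccr7 had no region of either mark in any library. The T cell marker Cd3d also had more H3K27ac in cKO, 10.9 ± 3.32% against 0 in both WT libraries. B cell markers summed to 5.33 and 5.23 kb in WT and 3.16 and 8.19 kb in cKO, with Pax5 and Ebf1 at 0. The part of other cell types in the H2-DM values was not tested. Lyz2, where Cre is inserted, had H3K27ac of 94.2 and 88.4% in WT and 28.1 and 24.4% in cKO.

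By covered percent across the 10 libraries, the gene most like Ciita was Capn3 (a Euclidean distance of 3.07 percentage points, where a gene with no region at all is 16.01 points away), followed by Arhgef40 (3.38) and Plek2 (4.25). The closest to Cd74 was Rab26 at 21.1 points and the closest to H2-DMa was Tlcd1 at 18.3 points, where a gene with no region is 65.8 and 74.0 points away. H2-DMb1 lay nearest to Cox7a1 (11.8 points) and H2-DMb2 to Nmb (8.45 points), with 41.5 and 38.6 points to a gene with no region. For H2-Aa, H2-Ab1 and H2-Eb1 the nearest genes were Pcp2 (2.47), Nkrf (1.88) and Gm43720 (2.96), and genes with no region were themselves 7.03, 6.55 and 12.0 points away.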

How the data were processed

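Paired reads had been mapped by the authors to mm10 with Bowtie2 in local mode, and enriched regions had been called with HOMER. The submitters' processing notes also name cutadapt and deepTools. Per the file headers, each library was called separately with a peak size of 500 bp and a minimum distance of 1000 bp, at least 4-fold over IgG with a Poisson p of 1e-04, and peaks were stitched into regions of variable width. WT, cKO and H3.3-HA libraries had different IgG controls, so a genotype difference includes any difference between controls. The deposited lists give start and end positions in bp, and their score column holds the constant 1, so neither counts, coverage nor p-values per region could be used. Differential binding in the study rested on read counts that the lists do not hold.

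Autosomal, X and Y regions were intersected with GENCODE M21 genes (same build as mm10) in Python 3.11.15 with pandas 2.3.3 and NumPy 2.4.6. Coordinates are 1-based. The value per gene and library was the covered length of the window of body and 5 kb upstream. The 4 lists of a mark were merged, and a merged region was lost or gained by an overlap of at least 1 bp. A region was placed by its midpoint. The rules were tested on simulated lists. All 8 genes are named, and for each the 3 most similar genes over 1 Mb away. The 8 genes, the pathway list and the marker lists were chosen with earlier results of these data known. Alternatives were the window, a minimum width of 1 kb, lists of equal length, scaling to all covered bases, an overlap of 50%, each library left out, and a replicate block. IgG libraries were not used here beyond that calling. Some genes of the pathway and marker lists entered the counts and sums but are not reported here by name.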

Additional observations from a re-analysis of the deposited data

How the results depend on the processing

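Windows without the bodies of other coding genes and the crossed pairing were added after the data were seen. Of 114 group values recomputed, 89 stayed within 1.5 times the reported count or within 1 SD of the reported length and 25 moved. For H3K27ac, with regions of at least 1 kb the genes below WT went from 1 to 0, lost regions from 2 to 0 and gained regions from 1 to 0. Genes above WT went from 1 to 2, with Cd74 added, over the gene body alone, with lists of equal length and as a share of all covered bases. Lost regions were 1 over the body alone and 1 with lists of equal length, and gained regions were 2 with equal lists and 2 when 50% of the merged region had to be covered. For H3K36me3, with regions of at least 1 kb the genes below WT went from 5 to 2 and the summed difference from -3920 to -1359 bp, and with 5 kb on both sides the sum was -7238 bp. Genes above WT went from 1 to 0 over the body alone and without other gene bodies, where the H2-DMa difference reversed from 3.05 to -1.76 and -2.09 percentage points. The median H3.3-HA cover of the windows went from 16.5 to 7.94% with regions of at least 1 kb. The cause of these shifts was not tested, beyond the bases each setting removes.

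Leaving out each library in turn, H3K27ac gave 1 gene below WT every time, 1 to 4 genes above WT, 2 to 3 lost regions, 1 to 7 gained regions and a summed difference of 2282.5 to 10726.5 bp. H3K36me3 gave 5 to 6 genes below WT, 1 to 2 above, 1 to 8 lost regions, 0 to 2 gained regions and a sum of -5248.5 to -2591.5 bp. The highest H3K27ac counts of 4 and 7 came without cKO replicate 1, and 5 and 8 lost H3K36me3 regions without WT replicate 1 and 2. The H3.3-HA median was 11.8 to 21.1%. With the replicate block, which pairs same-numbered WT and cKO libraries, the counts were 1 below and 1 above for H3K27ac and 5 below and 1 above for H3K36me3, as without it. Deviations of same-numbered libraries correlated at -0.101 for H3K27ac and 0.104 for H3K36me3, over 2 pairs whose numbers the labels do not tie to a shared animal or day. Crossing the numbers gave 1 below and 2 above for H3K27ac and 5 below and 1 above for H3K36me3.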
